A study of Drosophila melanogaster with 3 samples.

Results

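HA-Ubx peaks on the small chromosome 4 and on the heterochromatic and unplaced sequences of the Drosophila genome numbered 276 of the 10337 peaks in the list, or 2.67%. They were chosen by sequence name alone, as every peak on the sequences 4, 2LHet, 2RHet, 3LHet, 3RHet, XHet, YHet and U of the dm3 build. Of the 276, 61 lay on chromosome 4, 90 on the 6 sequences named Het and 125 on U. The 594 peaks of a further unplaced sequence, Uextra, were left out. The list came from ChIP-seq of S2-DRSC cells, a fly line derived from late embryos, with a stably transfected HA-tagged Ubx, genotype HA::Ubx. All 3 samples carried that transgene and received 10 micromolar copper sulphate for 24 h. They were 2 replicates precipitated with an antibody against HA, and 1 input from the same line without immunoprecipitation. No sample of cells lacking HA::Ubx was analysed here, and the labels do not say whether the replicates were separate cultures.

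Ubx is a Hox homeodomain protein that specifies segment identity, and many of its sites are bound together with the cofactors Extradenticle and Homothorax. Chromosome 4 of the fly carries active genes within chromatin rich in the heterochromatin protein HP1a. The Het sequences are assembled scaffolds mapped to the pericentric heterochromatin of a named arm or, for XHet and YHet, of a sex chromosome. U joins scaffolds that had no place in that build, so a distance between peaks on U, and across scaffold junctions of the Het sequences, need not be a distance in the genome. Much of these sequences is repetitive, and the part of them open to read mapping was not examined.

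A single list served both immunoprecipitations, so no value below has a replicate error and no difference between sequences was tested. Peaks of the same list are not replicates. Values are given with exact binomial intervals for medians, Wilson intervals for shares and Poisson intervals for densities, all at 95%, and these cover counting error only. Peaks that are neighbours or form a run are counted together. The intervals of shares by spacing treat them as independent and are therefore too narrow even for counting error. The 9467 peaks of the 5 large arms 2L, 2R, 3L, 3R and X are set beside the 276 peaks. Positions are 1-based in dm3. A dm3 genome and annotation were not used here, so peaks carry neither sequence nor gene. The score of each peak is the authors' own, and no source at hand states what it measures.

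Chromosome 4 held the strongest of the 276 peaks, and scores there were spread widely. The median score was 31.4 on chromosome 4 (interval 19.8 to 35.6, n = 61), 19.0 on the Het sequences (16.3 to 21.4, n = 90) and 22.4 on U (20.5 to 24.7, n = 125). On the large arms it was 25.2 (24.8 to 25.6). The quartiles of the scores ran from 15.7 to 41.8 on chromosome 4, from 13.9 to 26.1 on the Het sequences and from 16.2 to 31.6 on U, against 16.6 to 39.5 on the large arms. The interval on chromosome 4 took in the large-arm median, whereas the intervals of the Het sequences and U lay below it. The same order showed at the upper end. Of the whole list, 25% (2585 peaks) scored 38.5 or above, by construction. These top 25% took in 17 of 61 peaks on chromosome 4 (27.9%, 18.2% to 40.2%), 8 of 90 on the Het sequences (8.89%, 4.57% to 16.6%) and 18 of 125 on U (14.4%, 9.31% to 21.6%), against 26.1% on the large arms (25.2% to 27.0%). Chromosome 4 was thus near the background, and the other classes were below it. None of the 276 peaks was among the 100 highest of the list, which is near their share of 2.67% of all peaks. Among the highest 1000 were 12, of which 7 were on chromosome 4, 1 on a Het sequence and 4 on U. Of the whole list, chromosome 4 made up 0.590%, the Het sequences 0.871% and U 1.21%. The large arms made up 91.6% and held 975 of the highest 1000.

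**Figure D1:**
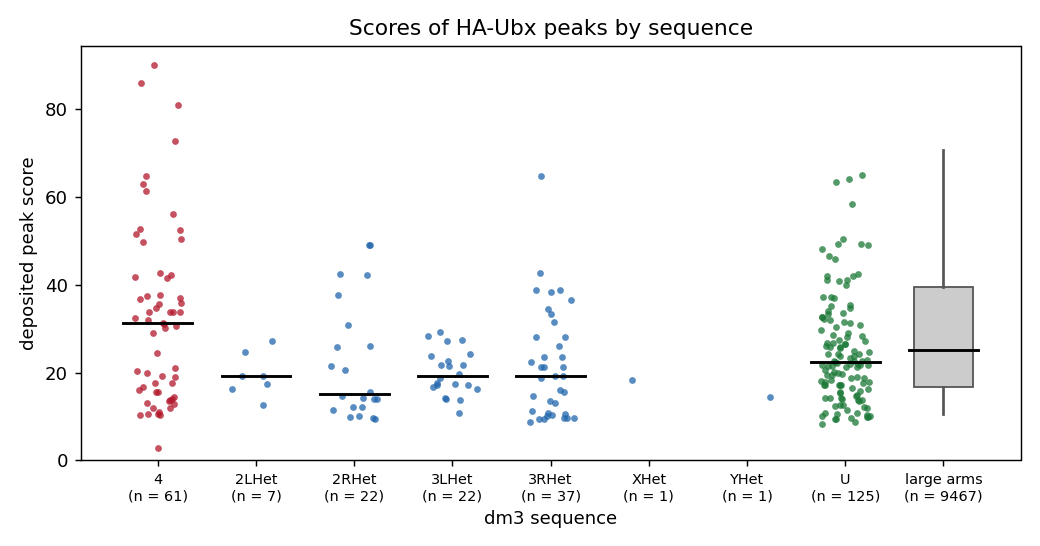
Deposited score of each HA-Ubx peak on chromosome 4, the 6 Het sequences and U. Each point is a peak and each black line a median; for the large arms the box spans the quartiles and the lines reach the 5th and 95th percentiles. Peaks on chromosome 4 reach 90.0, while every peak of 3LHet lies below 30.

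Low scores were common on 2RHet and 3RHet. The Het sequences had 36 of 90 peaks (40%, 30.5% to 50.3%) in the lowest 25% of the whole list. On chromosome 4 that share was 27.9% (18.2% to 40.2%), on U 25.6% (18.8% to 33.9%) and on the large arms 24.3% (23.5% to 25.2%). By sequence it was 12 of 22 on 2RHet (54.5%, 34.7% to 73.1%) and 16 of 37 on 3RHet (43.2%, 28.7% to 59.1%). It was 5 of 22 on 3LHet (22.7%, 10.1% to 43.4%) and 2 of 7 on 2LHet (28.6%, 8.22% to 64.1%), with overlapping intervals. The single peak of YHet was in the lowest 25% and that of XHet was not. Among the Het sequences with more than 1 peak, 2RHet had the lowest median score, 15.1 (12.1 to 30.8, n = 22). The medians of 2LHet (12.7 to 27.1, n = 7), 3LHet (16.6 to 23.7, n = 22) and 3RHet (13.6 to 23.5, n = 37) were all 19.2. These intervals overlap. The ranges differed more than the medians: 3LHet ran from 10.8 to 29.2, with none of its 22 peaks in the top 25% of the list, whereas 2RHet ran from 9.42 to 49.1 and 3RHet from 8.84 to 64.8, each with 4 peaks there.

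The strongest peak of chromosome 4, chr4:89142-90445, scored 90.0 over 1304 bp and ranked 147th in the whole list. A weaker peak lay 1.94 kb from it, midpoint to midpoint. The second, chr4:521893-523893, scored 86.0 over 2001 bp. The third, chr4:717299-717646, scored 81.0 although it spanned only 348 bp, and it was the middle one of 3 peaks within 2.72 kb. The fourth, chr4:1316045-1317455, scored 72.6 and measured 1411 bp. The remaining 6 of the 10 highest scored between 52.5 and 64.8 and lay at chr4:1000300-1000987, chr4:1296838-1298178, chr4:445297-445545, chr4:1292246-1292897, chr4:1071778-1072305 and chr4:64326-64610. The first of these 6 was the one peak of the 10 with no other midpoint within 20000 bp. The last sat 309 bp, edge to edge, from chr4:63579-64016, whose score of 2.83 was the lowest of the 276.

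Peak widths on chromosome 4 ran from 216 to 4160 bp, and 31 of its 61 peaks measured 300 to 1000 bp. The median width was 432 bp (352 to 617) on chromosome 4, 469.5 bp (429 to 522) on the Het sequences and 517 bp (477 to 542) on U, all below the 638 bp (629 to 647) of the large arms. On chromosome 4, however, 14 of 61 peaks (23.0%, 14.2% to 34.9%) were wider than 1000 bp, close to the 24.8% (23.9% to 25.7%) of the large arms. The Het sequences had 12 such peaks (13.3%, 7.79% to 21.9%) and U had 8 (6.40%, 3.28% to 12.1%). At the other end, 16 of the 61 peaks on chromosome 4 (26.2%, 16.8% to 38.4%) were narrower than 300 bp. That share was 11.1% (6.15% to 19.3%) on the Het sequences, 7.20% (3.83% to 13.1%) on U and 5.67% (5.22% to 6.16%) on the large arms, where single arms ranged from 4.92% on 3R to 7.37% on X. The limits of 300 and 1000 bp were set after the widths had been seen.

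**Figure D2:**
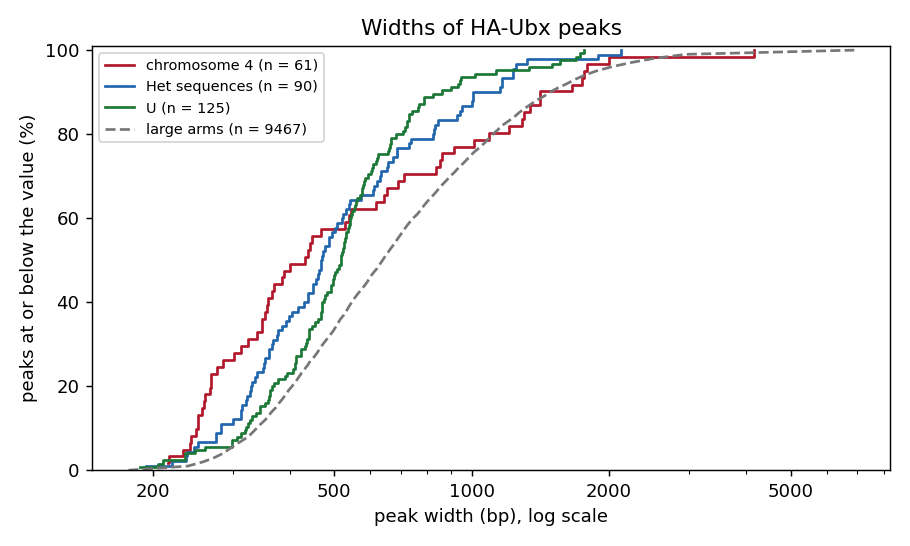
Cumulative share of HA-Ubx peaks (%) by peak width in bp on a log scale, for chromosome 4, the Het sequences, U and the large arms. The curve of chromosome 4 is the highest at 300 bp, with 26.2% of its peaks under that width, and meets that of the large arms near 1000 bp.

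The narrow peaks of chromosome 4 included strong and weak ones. Their scores ran from 11.1 to 61.4 with a median of 33.8, 10 of the 16 scored above 30, and 4 were in the lowest 25% of the list. All 61 peaks of the chromosome were similar, with a median score of 31.4, itself above 30, and 27.9% in the lowest 25%. Among the 50% of peaks with the highest scores in the list, 10 of 35 peaks on chromosome 4 (28.6%, 16.3% to 45.1%) were under 300 bp. The same share was 1 of 25 on the Het sequences (4%, 0.710% to 19.5%) and 0 of 50 on U, where 3 counts, the limit that a count of 0 allows, would be 6%, and the Wilson limit was 7.13%. It was 2.62% (2.20% to 3.11%) on the large arms. The strongest narrow peak was chr4:445297-445545, at 249 bp and a score of 61.4. The 3 narrowest peaks of the chromosome, chr4:328578-328793, chr4:150436-150652 and chr4:1047725-1047957, measured 216, 217 and 233 bp, and they scored between 11.9 and 17.6.

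The broad peaks of chromosome 4 lay mostly in a pair of stretches. From 521893 to 700919, over 179 kb, 6 peaks in a row were wider than 1000 bp, with scores of 16.1 to 86.0. These 6 were consecutive in the list but not a tight cluster. Between them lay the longest gap of the chromosome, 112 kb from 579496 to 691658. The 6 included the 3 widest of the chromosome, chr4:525336-529495 with 4160 bp, chr4:521893-523893 with 2001 bp and chr4:699133-700919 with 1787 bp. From 1290616 to 1323499, over 32.9 kb, 5 of 7 peaks exceeded 1000 bp, and the 7 had a median score of 49.7. The other 3 broad peaks stood singly, at chr4:89142-90445, chr4:340726-341815 and chr4:925369-926379. These stretches were picked after their values had been seen.

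**Figure D3:**
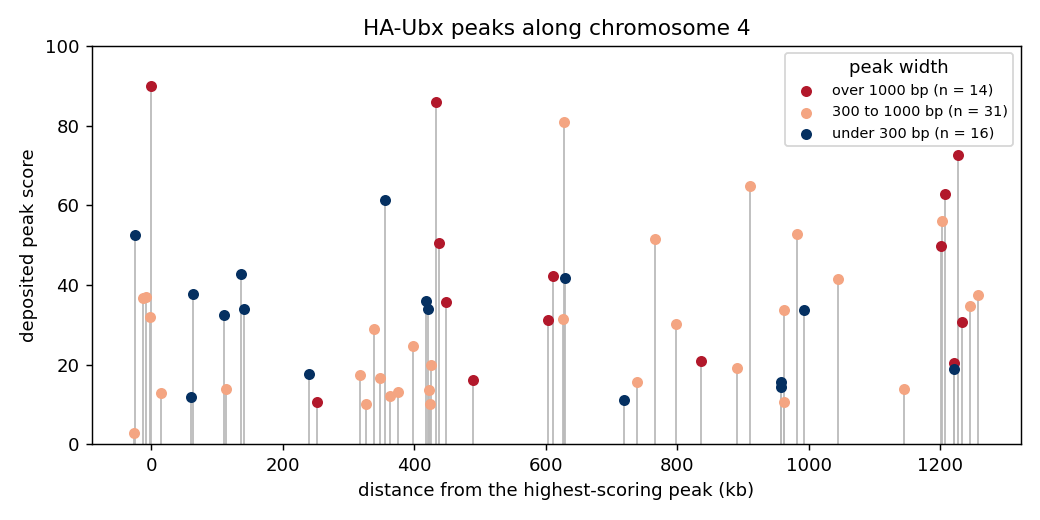
Score of the 61 HA-Ubx peaks of chromosome 4 against the distance in kb from its highest-scoring peak. Each stem is a peak, coloured by width. The 16 peaks under 300 bp reach scores of 61.4, and 11 of the 14 over 1000 bp fall in 2 stretches, of 179 kb and 32.9 kb.

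The widest peaks of the Het sequences were not among the strongest. The single peak of YHet, chrYHet:71713-73836, was the widest on any Het sequence with 2124 bp and scored 14.5. The single peak of XHet, chrXHet:34995-36881, came next with 1887 bp and scored 18.2. The third was chr3RHet:1078093-1079417, with 1325 bp and a score of 22.5. The 3 narrowest Het peaks, chr2RHet:390825-391017, chr2LHet:31576-31795 and chr3LHet:605948-606184, measured 193, 220 and 237 bp. On U the 3 widest, chrU:5630039-5631797, chrU:7997780-7999507 and chrU:8293957-8295646, measured 1759, 1728 and 1690 bp, with scores of 19.97, 41.1 and 9.82. Its narrowest, chrU:9626684-9626871, chrU:1225900-1226104 and chrU:1220127-1220337, measured 188, 205 and 211 bp, and they scored between 8.67 and 10.8. Across the 125 peaks of U, which share their libraries, width and score had a Spearman rho of 0.43, against 0.20 over 61 peaks on chromosome 4, 0.16 over 90 on the Het sequences and 0.21 on the large arms.

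At a limit of 5000 bp, U had a lower share of close peaks than chromosome 4 and the Het sequences, whose intervals overlapped. Over the whole list, 70.3% of peaks (7271) had another midpoint within 5000 bp. The share was 31 of 61 on chromosome 4 (50.8%, 38.6% to 62.9%), 49 of 90 on the Het sequences (54.4%, 44.2% to 64.3%) and 27 of 125 on U (21.6%, 15.3% to 29.6%), each below the 74.3% (73.4% to 75.2%) of the large arms. The typical distance to the nearest other midpoint was 4.94 kb on chromosome 4, with quartiles of 1.48 and 11.8 kb. It was 2.64 kb on the Het sequences, with quartiles of 0.899 and 44.0 kb, and 15.4 kb on U, with quartiles of 5.77 and 47.4 kb. On the large arms it was 2.30 kb, with quartiles of 1.18 and 5.12 kb.

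**Figure D4:**
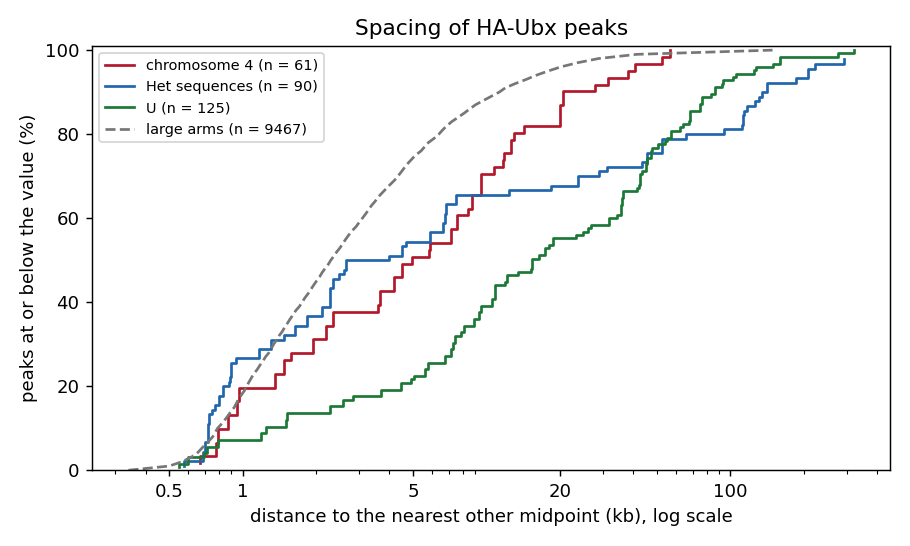
Cumulative share of HA-Ubx peaks (%) by the distance in kb to the nearest other midpoint of the same sequence, log scale. The Het curve rises early and then flattens, the curve of U lies to the right with 21.6% within 5000 bp, and 2 Het peaks alone on their sequence have no distance.

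Pooled over their sequences, Het peaks thus stood either close together or far apart. Within 1000 bp, 24 of 90 Het peaks (26.7%, 18.6% to 36.6%) had another midpoint, above the 18.4% (17.6% to 19.2%) of the large arms, although these intervals overlap. The share was 19.7% (11.6% to 31.3%) on chromosome 4 and 7.20% (3.83% to 13.1%) on U. At the same time 29 Het peaks (32.2%, 23.5% to 42.4%) had none within 20000 bp, the lone peaks of XHet and YHet included. That held for 10 peaks of chromosome 4 (16.4%, 9.16% to 27.6%), 56 of U (44.8%, 36.4% to 53.5%) and 4.10% of the large arms (3.72% to 4.52%). Peaks in runs of 3 or more, each midpoint within 5000 bp of the next, made up 37 of 90 on the Het sequences (41.1%, 31.5% to 51.4%), 15 of 61 on chromosome 4 (24.6%, 15.5% to 36.7%) and 9 of 125 on U (7.20%, 3.83% to 13.1%), against 53.3% on the large arms (52.3% to 54.3%).

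The Het sequences also differed among themselves. On 3RHet, 26 of 37 peaks had a neighbour within 5000 bp (70.3%, 54.2% to 82.5%), against 11 of 22 on 3LHet (50%, 30.7% to 69.3%) and 6 of 22 on 2RHet (27.3%, 13.2% to 48.2%). The Het share was 43.4% without 3RHet, against 54.4% with it. Within 1000 bp the share was 29.7% on 3RHet, 27.3% on 3LHet and 9.09% on 2RHet. Within 20000 bp it was 78.4%, 68.2% and 50%, and the intervals overlap at both limits. On 2LHet 6 of 7 peaks had a neighbour within 5000 bp. They formed a pair of trios, at 31576 to 35097 with scores of 12.7 to 17.3 and at 123485 to 125743 with scores of 19.2 to 27.1. Density over the span from first to last peak was 15.5 per Mb on 3RHet (10.9 to 21.3), 9.44 on 3LHet (5.92 to 14.3) and 6.88 on 2RHet (4.31 to 10.4). It was 47.5 per Mb on chromosome 4 (36.3 to 61.02) and 12.6 on U (10.5 to 15.0). The 7 peaks of 2LHet, all within 0.138 Mb, gave 50.8 per Mb with a wide interval (20.4 to 105). On the large arms density ran from 60.3 per Mb on X to 89.5 on 3L.

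The fullest windows of 20000 bp on 3RHet held the same number of peaks at very different scores. The 7 peaks from 1068033 to 1088916 all scored above 20, with a median of 34.4 and a maximum of 64.8, and covered 6.60 kb. The 7 peaks from 155722 to 175455 had a median score of 11.2, with 1 of them above 20, and covered 3.47 kb. The first window ended with the strongest Het peak, chr3RHet:1088264-1088916, which scored 64.8 over 653 bp. Its neighbours chr3RHet:1085660-1086231 and chr3RHet:1080677-1081412 scored 42.7 and 38.9, so 3 of the 10 highest Het scores lay within this window.

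Of the other 7 among the 10 highest Het scores, 4 had no other midpoint within 20000 bp. All of the 10 highest were on 2RHet or 3RHet, 5 on each. After the strongest came chr2RHet:3197890-3198360 and chr2RHet:44790-45295, which scored 49.1 and 49.0. The first of this pair lay 1.17 kb from chr2RHet:3199152-3199433, the tenth with 37.7, whereas the other had no midpoint nearer than 293 kb. The peaks chr2RHet:2266855-2267863 and chr2RHet:2154175-2154830 scored 42.5 and 42.3 and were each other's nearest neighbour at 113 kb. On 3RHet, chr3RHet:1860683-1861355 scored 38.9 with its nearest neighbour 52.4 kb away, and chr3RHet:1982299-1982736 scored 38.3 with one at 4.69 kb. The 2 longest stretches without a peak on the Het sequences were both on 2RHet, 726 kb from 2267864 to 2993952 and 687 kb from 1467353 to 2154174. U had a longer one, 808 kb from 4116224 to 4924713. The longest on 3RHet was 453 kb, from 398051 to 851352, and the longest on 3LHet 385 kb, from 74628 to 459573. How much of these stretches is unsequenced gap was not examined.

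On chromosome 4 the peaks were spread along the whole span, with the longest stretch without a peak 112 kb, from 579496 to 691658. Windows of 100 kb held between 1 and 9 peaks. The fullest, 500001 to 600000, held 9 (Poisson interval 4.12 to 17.1), with a highest score of 86.0. Its tightest part held 6 peaks within 20000 bp, and was reached from 507248 to 523893 and again from 510820 to 529495. The windows 600001 to 700000 and 1100001 to 1200000 held 1 each (0.0253 to 5.57). Peaks with another midpoint within 5000 bp had a median score of 33.8 on chromosome 4, against 20.1 for the 10 peaks with none within 20000 bp. On the Het sequences these medians were 19.6 and 19.2, on U 21.3 and 22.6, and on the large arms 25.2 and 24.2.

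Most of the 10 strongest peaks on U stood alone, as did many of its other peaks. The highest, chrU:8470375-8470993, scored 65.0 over 619 bp, and its nearest neighbour lay 45.5 kb away. The next 3, chrU:7457636-7458969, chrU:5084604-5085343 and chrU:2545474-2546127, scored 64.1, 63.3 and 58.5, with nearest neighbours at 67.5, 160 and 92.1 kb. Of the 10 highest on U, 7 had no other midpoint within 20000 bp, and 1, chrU:9622338-9623045 with a score of 49.2, had one within 5000 bp. For comparison, 1 of the 10 highest on chromosome 4 and 4 of the 10 highest on the Het sequences had none within 20000 bp. Over all peaks of each class that share was 44.8% on U (36.4% to 53.5%), 16.4% on chromosome 4 and 32.2% on the Het sequences. The remaining 5 of the 10 highest on U scored between 46.6 and 50.3 and lay at chrU:8015789-8016234, chrU:2396368-2396961, chrU:6904308-6905440, chrU:7294981-7295558 and chrU:7883955-7884577.

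Peaks were denser in the later part of U, whose order of scaffolds need not be an order in the genome. How much of each part is gap or open to read mapping was not examined. The first 5 Mb held 34 peaks, or 6.80 per Mb (4.71 to 9.50), and the second 5 Mb held 91, or 18.2 per Mb (14.7 to 22.3). Counts per 1 Mb bin ran from 4 in the fifth bin to 26 in the tenth. Closeness went the other way: 13 of the 34 peaks in the first part (38.2%, 23.9% to 55.0%) had another midpoint within 5000 bp, against 14 of the 91 in the second (15.4%, 9.39% to 24.2%). The median score was 21.9 in the first part and 22.5 in the second. The division of U into 2 parts was made after its counts had been seen. Groups of 4 midpoints within 20000 bp, the most on U, lay from 276283 to 295802, from 7870930 to 7884577 and from 9614470 to 9626871, with median scores of 18.7, 39.1 and 19.5.

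**Figure D5:**
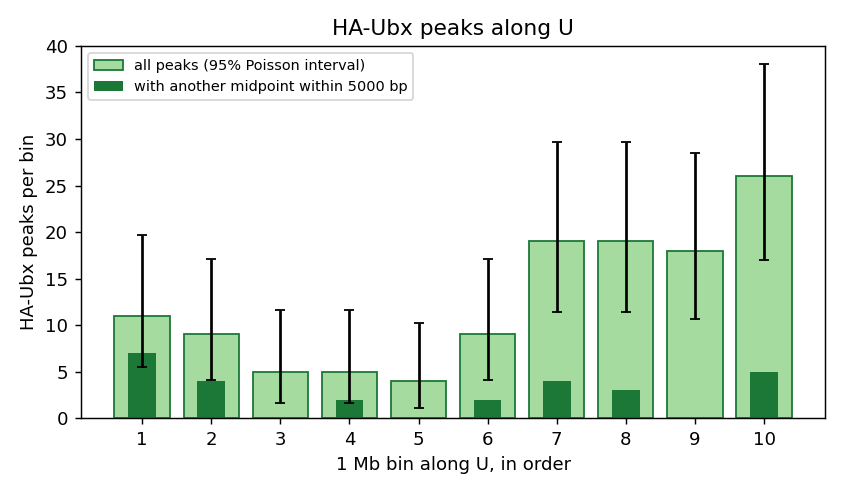
Number of HA-Ubx peaks in each 1 Mb bin along U, in order, with 95% Poisson intervals (pale bars), and the number with another midpoint within 5000 bp (dark bars). Counts reach 26 in the tenth bin, whereas the most close neighbours, 7, are in the first.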

How the data were processed

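Per the submitters' processing notes, the tools were BWA 0.7.12 and MACS2 and the build was dm3. No source names the thresholds, how the input was used or how replicates were merged. The deposited list holds 1 score per peak, made by the authors. It has no read counts, so the depth per sample is unknown. Het and U names are absent from Release 6 of the genome, the reference held for this work, so no coordinate, sequence or gene was taken from it.

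Widths, midpoints, edge gaps and quantiles were computed per sequence with Python 3.11.15 (pandas 2.3.3, numpy 2.4.6 and scipy 1.17.1) and drawn with matplotlib 3.10.9, after the functions had been tested on simulated data. Named peaks were the 10 highest, 3 widest and 3 narrowest per class, single peaks, the fullest windows of 20000 bp and the longest gap. The members and rules were chosen with earlier results of these data known. The planned motif comparison needs a dm3 genome and was not made. Alternatives covered low scores, scores of more than 5 decimals, joining, distance limits, the 50% with the highest scores and 3RHet.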

Additional observations from a re-analysis of the deposited data

How the results depend on the processing

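Depth is unknown, no replicate could be left out of a common list, and no paired analysis was possible because a single list serves both immunoprecipitations. Of 43 recalculated values, 29 stayed inside their 95% interval (counts, within 1.5 times) and 14 moved. Of 34 differences from the large arms, 25 stayed, 7 moved in size and 2 changed sign. Both sign changes came with a neighbour limit of 1000 bp in place of 5000 bp. Closeness then exceeded that of the large arms by 8.30 percentage points on the Het sequences (26.7%) and by 1.30 on chromosome 4 (19.7%), while U (7.20%) differed by -11.2. At 20000 bp the shares were 67.8% (Het), 83.6% (chromosome 4) and 55.2% (U, -40.7 points from the large arms). Keeping the top-scoring 50% of peaks, 25 Het, 35 chromosome 4 and 50 U peaks were left. There 20% of Het peaks (-32.7 points from the large arms) and 4% of U peaks had such a neighbour within 5000 bp, chromosome 4 differed by -7.01 points, and the median width was 564 bp on U and -225 bp from the large arms on the Het sequences. Without 3RHet the Het share was 43.4% (-30.9 points). Joining peaks under 1000 bp apart gave a median Het width of 572 bp and put U at -257.5 bp from the large arms. On chromosome 4 joining raised the median width from 432 to 617 bp, which is the upper limit of its interval (352 to 617). The order of the 3 classes was then reversed, with chromosome 4 the widest and U the narrowest at 524.5 bp. All 3 stayed below the 782 bp of the joined large arms. Fewer peaks, other limits and joining move these values by construction. Leaving out scores under 5, or those of more than 5 decimals, moved none of the values or differences recalculated with them. These alternatives removed few of the 276 peaks. Without scores under 5, chromosome 4 kept 60 of 61 peaks, and the Het sequences and U kept all 90 and 125. The values of the Het sequences and U were therefore fixed. Chromosome 4 had 0 scores of more than 5 decimals, so its median was fixed there. The totals of unmoved values and differences above include these cases. The planned sequence comparison was not run.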

Other observations

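Exact repeats of a score were frequent in the list. On chromosome 4, 29 of 61 peaks (47.5%, Wilson interval 35.5% to 59.8%) had a score that occurred again elsewhere in the list. That held for 23 of 90 Het peaks (25.6%, 17.7% to 35.4%), 38 of 125 on U (30.4%, 23.0% to 38.9%) and 41.4% of the large arms (40.4% to 42.4%). Among the large arms the share was 67.0% on X (64.5% to 69.5%) and 35.2% to 38.5% on the other 4. Some repeats joined classes. A peak of 3RHet and a peak of chromosome 4 both scored 19.2078, a value found 11 times in the list.

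Scores written with more than 5 decimals numbered 328 of 10337. Among the 276 peaks there were 9, with 6 on U, 1 on 3LHet and the single peaks of XHet and YHet, and none on chromosome 4. The 9 peaks were between 662 and 2124 bp wide. What the extra decimals stand for is not given in the sources used here.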
